A study of Mus musculus with 12 samples.

Results

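Spleen T cells of NOD mice were compared with spleen T cells of B6 mice on 2 arrays, NOD replicates 1 and 2, out of the 12 arrays of the series. Each array held NOD RNA in the red channel (Cy5) and B6 RNA in the green channel (Cy3), per the labels, so every value is a ratio of NOD to B6 within one hybridisation. Probes with exactly 1 gene symbol were averaged per gene, and the 8600 genes with a value on both NOD arrays were used, out of 8708 genes on the array, leaving 108 without. A further 7331 features without a single gene symbol were measured on both arrays and stayed in the test, which gave 15931 features in all. Values below are log2 ratios of NOD to B6 after each array was centred on its median. A value of 1 is a doubling and a value of 0 is the level of the median feature.

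The NOD mouse (non-obese diabetic) develops autoimmune diabetes without treatment, and T cells are needed for the disease. B6 (C57BL/6) is a common laboratory strain that does not. Many genetic intervals named Idd separate the strains in risk. Idd1 holds the major histocompatibility complex (MHC), whose class II molecules present peptides to T cells, and Idd5 lies on chromosome 1 and holds the genes of the costimulatory receptors Cd28, Ctla4 and Icos. The spleen also filters blood and can make red cells and granulocytes in the mouse, so T cells prepared from it can carry RNA of other blood cells.

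The other arrays entered the shared estimate of the spread and, where said, a side by side comparison. They held spleen T cells of NOD.H2h4 mice (NOD with another MHC haplotype), of B6.NODIdd1,5 mice (B6 with the NOD intervals Idd1 and Idd5), of B6 mice that received NOD bone marrow (NODtoB6) and of NOD mice that received B6 bone marrow (B6toNOD), and kidney cells of B6.NODIdd1,5 mice against B6 kidney. Each group had 2 arrays. No source used here gives the dyes of the NODtoB6 and B6toNOD arrays, and they were assumed to run in the same direction as the rest. No source used here gives the age or sex of the mice, the way the T cells were purified or the number of animals behind an array. The p-values therefore measure only the spread between arrays, which may be technical. The B6 channel has no replicate spread of its own, and no array with exchanged dyes is named, so a dye bias of a single probe cannot be told apart from a strain difference.

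NOD replicate 1 gave a value for 20558 of 20736 probes and NOD replicate 2 for 20202. The Spearman correlation of the arrays over the 8600 genes was 0.7 and Pearson's r was 0.73, across genes, which are not independent replicates. The difference between the arrays had an SD of 0.305 over genes, while the middle 90% of the gene means lay between -0.62 and 0.43. Before centring the feature medians were -0.01 and -0.29, so centring raised the mean NOD value by 0.15. Signal over background is unknown, because only ratios were analysed, so a dim spot could lie behind a large ratio. Defining T cell genes could not be checked as levels for the same reason. Cd3e, Cd3g, Cd8a and Thy1 have no probe with a single symbol here. Cd4, the coreceptor of helper T cells, was at -0.38 and 0.22, and Cd247, the zeta chain of the T cell receptor, at 0.06 and 0.26.

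Of the 8600 genes, 484 were higher in NOD than in B6 and 202 were lower at an adjusted p of 0.05 (limma, Benjamini-Hochberg adjustment over all 15931 features). These 686 genes are 7.98% of those tested, 5.63% higher and 2.35% lower. Over all features 1971 were called, 12.4%, with 1570 higher (9.85%) and 401 lower (2.52%). All 686 called genes had the same sign on both arrays. Most differences were small: 353 of the 686 were under 0.5 in size and 84 were over 1, with a median of 0.46 among the higher and -0.61 among the lower genes. Large ratios with no call were also present. On both arrays 44 genes were above 1, of which 41 were called, and 69 genes were below -1, of which 28 were called. The plot of the NOD arrays against each other shows both sets.

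**Figure D1:**
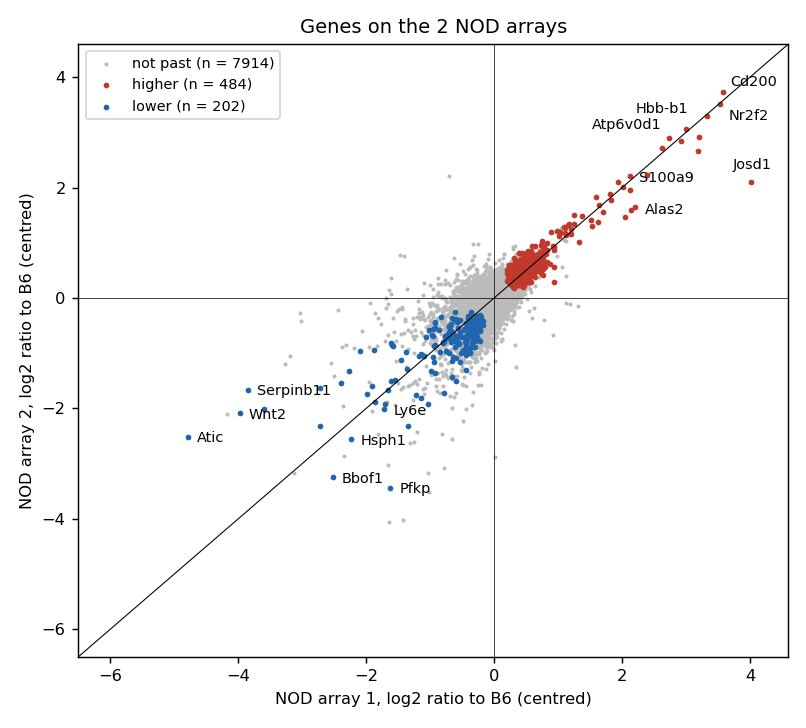
Log2 ratio of NOD to B6 on NOD array 1 (x axis) and NOD array 2 (y axis), after centring, for 8600 genes; red points are the 484 genes called higher, blue points the 202 called lower, grey points those not past the threshold, and the black diagonal marks equal values. Cd200 (3.57 and 3.73) lies near the diagonal, while Josd1 (4.01 and 2.10) and Atic (-4.79 and -2.51) lie off it.

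The balance of higher and lower calls differed between settings. Higher calls were 79.7% of all called features in centred data, but 53.8% of 197 calls in the values as deposited and 63.5% of 4986 calls with arrays scaled to the same spread. It was 79.5% with centring over probes and 81.1% with the running median along the probe order subtracted. With only the 2 NOD arrays in the fit, 50.4% of 2660 calls were higher. The calls also rest on both arrays. Without NOD replicate 1, 225 of the 686 genes were still called, and without NOD replicate 2 only 62 were, with the lone array assumed to vary like the other groups. Without either kidney array the number was 395. There were 41 genes, 30 higher and 11 lower, that passed under each of the 24 alternatives in which they had a value. They include the globins Hbb-b1, Hbb-bh1, Hbb-y and Hba-x, and Cd200, Nr2f2, S100a9, Hsph1, Hspa8, Fos, Ly6e and Atic, all described below. Rhbdd3, Glt8d1 and Phtf1 are also among them, although their probes disagree. The 24 alternatives are not all separate tests. Leaving out either array of another group gave the same number of calls against B6. For the kidney arrays this was the number with only the spleen T cell arrays. The median over 1 or 2 probes equals their mean. An array without a value for a gene was left out of that gene's fit, which concerned no NOD array. Among the genes named below this was 1 array for Alas2, Ighm, Klrk1, H2-Aa, Cd48, Cd86, Rhd, Tal1, Plpbp and 6330549H03Rik, 2 for Hbb-bh1, Atic, Wnt2, Btk, Nr1d2, Ank1, Slc38a9 and Tmem150a, 3 for Gp1bb, Pfkp and Crkl, 4 for Cd4 and Prkg2, 6 for Morc4 and 7 for Bbof1.

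Red cell genes were among the highest in NOD. Of 38 erythroid markers 20 were tested, and 7 were higher, 1 was lower and 12 did not pass (35% higher and 5% lower, against 5.63% and 2.35% of all genes). Their median was 0.404, against -0.031 over all genes, and it stayed above 0 with the running median along the probe order subtracted (0.302). It was 0.252 in the values as deposited and 0.704 with arrays scaled. Those settings only shift or rescale all values of an array, so nothing is read from its sign there. Hbb-b1, an adult beta globin chain, was 3.33 and 3.29 on the NOD arrays (mean 3.31 ± 0.13, SE, 9.92-fold, adjusted p = 8.8e-06). Both arrays were far above the median gene and differed little.

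Globins that are made mainly in the embryo were also higher. Hbb-bh1 was 2.73 and 2.90 (adjusted p = 7.6e-06), Hbb-y was 2.01 and 2.0 (adjusted p = 3.3e-05) and Hba-x was 1.81 and 1.89 (adjusted p = 1.0e-04). Globin genes resemble each other in sequence, so a cDNA probe of one can bind RNA of another, and the single globins were not told apart here. The single probes are shown in the plot of probes by gene: both Hbb-b1 probes were high, at 3.59 and 3.61 for one and 3.07 and 2.97 for the other, and all 4 Hbb-y probes lay between 1.77 and 2.42. The alpha globin Hba-a1 has no probe with a single symbol.

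The haem and iron genes varied. Alas2, the first enzyme of haem synthesis in red cell precursors, was 2.21 and 1.65 (mean 1.93 ± 0.16, adjusted p = 0.0016). Fech, which inserts iron into the haem ring, was 1.20 and 1.17 (1.18 ± 0.27, adjusted p = 0.032), and Slc25a37, the mitochondrial iron importer, was 0.73 and 0.96 (0.84 ± 0.096, adjusted p = 0.0033). All 3 lay above 0 on both arrays, yet the calls of Fech and Slc25a37 were lost without NOD replicate 2, and that of Fech also without NOD replicate 1, either kidney array or either NOD.H2h4 array. The enzymes Cpox (0.33 ± 0.095), Urod (0.06 ± 0.29), Uros (0.01 ± 0.18) and Ppox (-0.01 ± 0.25) did not pass. Membrane genes did not pass either: Slc4a1, the anion exchanger of the red cell, was 1.05 and 1.27 (1.16 ± 0.45, adjusted p = 0.16), Rhd was 0.48 ± 0.16 and Ank1 was -0.17 ± 0.18.

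The regulators of red cell formation did not pass the test. Gata1, a transcription factor of the lineage, was 0.19 and 0.10 (0.14 ± 0.11), and Tal1, its partner, was 0.13 and -0.75 (-0.31 ± 0.43). Tfrc, the transferrin receptor, was 0.13 and 0.17 (0.15 ± 0.12). Bnip3l, needed for the removal of mitochondria from young red cells, was 0.53 ± 0.47 and did not pass. Car1 was -0.22 ± 0.41 and did not pass. Car2, a carbonic anhydrase of red cells, was the only member called lower, at -0.42 and -0.95 (-0.69 ± 0.17, adjusted p = 0.041), and its call was lost without any one array of NOD, NOD.H2h4, B6.NODIdd1,5 T cells or kidney. Without NOD replicate 1 the list had 6 members higher, and without NOD replicate 2 it had 5.

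Of the 7 higher erythroid genes 3 have an entry among the RefSeq promoters (GRCm38.p6), and these are shown because GATA factors and Klf1, the usual regulators of this lineage, bind short motifs near such starts. The sequences are the 250 bases before the start of Hbb-y (chr7:103853208-103853457, minus strand), Hba-x (chr11:32276350-32276599, plus strand) and Alas2 (chrX:150547167-150547416, plus strand), printed 5′ to 3′ along the gene, with GATAA and CACCC in capitals on either strand (TTATC and GGGTG on the other).
Hbb-y: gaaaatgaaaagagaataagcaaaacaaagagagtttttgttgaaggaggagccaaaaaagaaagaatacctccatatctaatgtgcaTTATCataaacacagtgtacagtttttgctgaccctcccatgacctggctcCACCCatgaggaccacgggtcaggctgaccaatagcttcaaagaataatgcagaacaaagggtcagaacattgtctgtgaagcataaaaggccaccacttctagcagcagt
Hba-x: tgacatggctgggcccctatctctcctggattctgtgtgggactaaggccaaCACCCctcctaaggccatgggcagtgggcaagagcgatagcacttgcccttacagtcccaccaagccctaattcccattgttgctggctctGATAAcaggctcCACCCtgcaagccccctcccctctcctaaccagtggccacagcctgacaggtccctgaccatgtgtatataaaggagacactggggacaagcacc
Alas2: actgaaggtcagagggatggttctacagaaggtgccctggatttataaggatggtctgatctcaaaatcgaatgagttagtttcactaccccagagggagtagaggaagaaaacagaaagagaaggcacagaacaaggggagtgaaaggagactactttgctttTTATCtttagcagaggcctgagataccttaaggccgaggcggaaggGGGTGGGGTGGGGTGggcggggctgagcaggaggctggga
Hbb-y held 1 GATAA and 1 CACCC, Hba-x held 1 and 2, and Alas2 held 1 and 3, the 3 of Alas2 lying end to end. In that source 22.6% of all 32851 promoters held GATAA and 52.0% held CACCC in the same window. A match is a stretch of letters and not a measured binding site.

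Other genes had ratios as high as the globins, although they are not known as red cell genes. Cd200, a surface glycoprotein that restrains myeloid cells through its receptor, was the highest of all genes at 3.57 and 3.73 (3.65 ± 0.067, 12.6-fold, adjusted p = 5.1e-07). Nr2f2, an orphan nuclear receptor known from veins and mesenchyme, was 3.52 and 3.51 (3.52 ± 0.081, 11.5-fold, adjusted p = 8.1e-07). Atp6v0d1, a subunit of the vacuolar proton pump, was 2.99 and 3.07 (adjusted p = 8.1e-07). The arrays agreed closely in each case. Ciao2b, of cytosolic iron-sulphur cluster assembly, was 2.92 and 2.84 (adjusted p = 1.7e-06). Ptpn13, a large protein tyrosine phosphatase, was 2.62 and 2.72 (adjusted p = 1.3e-06). Each of these 5 genes is measured by 1 probe.

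The other groups, all measured against B6, gave these values. Hbb-b1 averaged 1.85 in NOD.H2h4, -1.21 in the T cells of B6.NODIdd1,5, -0.06 in B6.NODIdd1,5 kidney, 2.84 in NODtoB6 and 1.74 in B6toNOD. For Cd200 the same means were 2.03, -0.70, 0.66, 2.40 and 1.58. For Nr2f2 they were 1.86, -0.74, 0.53, 2.55 and 1.96. In all 3 genes NOD was highest, NODtoB6 followed, and the B6.NODIdd1,5 T cells were the only group below B6 by more than 0.5. Atp6v0d1 averaged 1.41, -0.05, 0.56, 2.52 and 0.99 in the same order of groups, and Ciao2b 1.24, -0.58, 0.50, 2.09 and 1.18. Ptpn13 averaged 1.13, -0.75, 0.02, 2.63 and 0.50. Values thus differed between genes, and for Ptpn13 NODtoB6 was about as high as NOD. What RNA these probes bound was not tested.

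**Figure D2:**
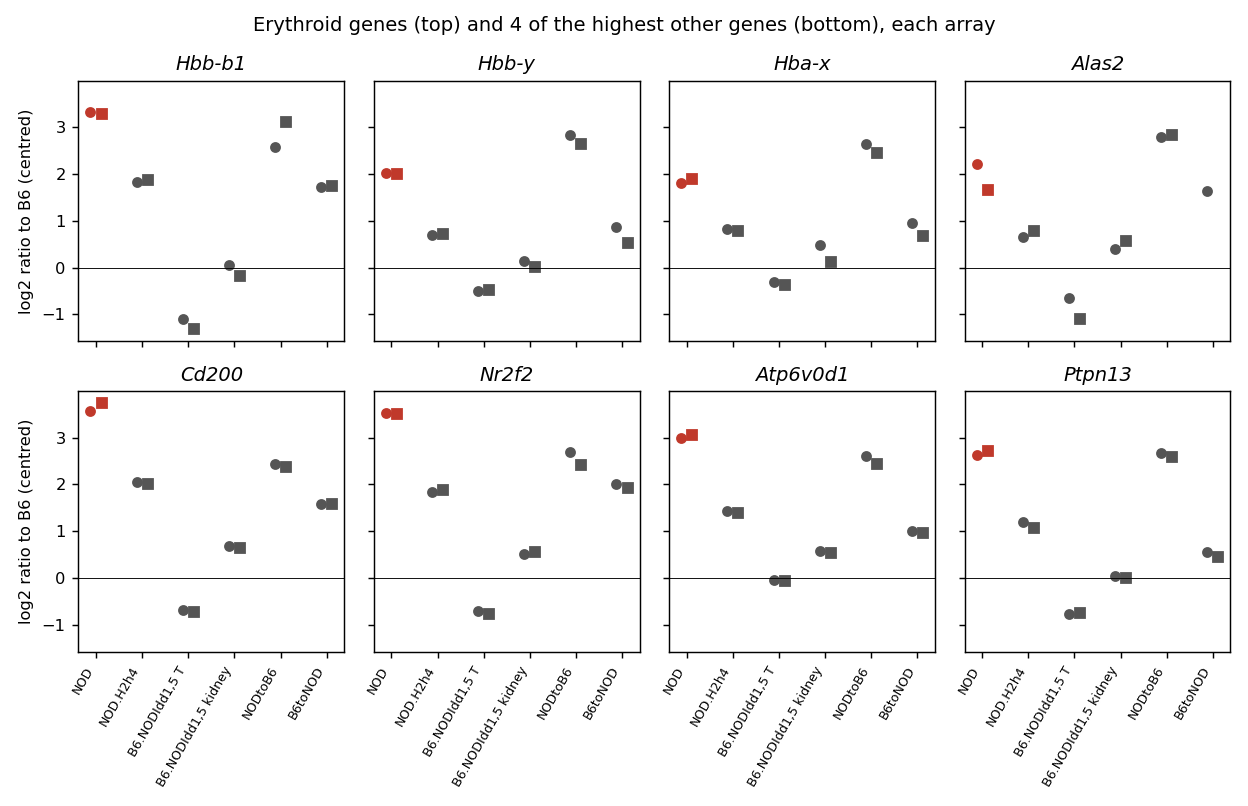
Log2 ratio to B6 after centring on each array (circles replicate 1, squares replicate 2; NOD in red) for Hbb-b1, Hbb-y, Hba-x and Alas2 in the top row and Cd200, Nr2f2, Atp6v0d1 and Ptpn13 in the bottom row, by group on the x axis. The NOD arrays lie at or above 1.65 in every panel, and the arrays of B6.NODIdd1,5 T cells lie near or below 0.

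A gene with several probes can be checked against itself. Of 157 called genes with at least 2 probes, 133 had all probes on the same side of 0, and nothing is read from this count, since genes were called on the mean of the same probes. Some genes with large ratios had unlike probes. Rhbdd3, a rhomboid-like protein, was called at 1.94 and 2.10, but one of its probes was at 0.15 and 0.31 and the other at 3.73 and 3.89. Glt8d1, Phtf1 and Tia1, which were picked after their values were seen, showed the same. One Glt8d1 probe was 3.11 and 2.72 and the other was -0.06 and -0.12. One Phtf1 probe was 3.39 and 3.24 and the other was -0.38 and -0.43. One Tia1 probe was 3.42 and 3.33, while the others lay between -0.32 and 0.51.

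Means of the high probes in other spleen T cell groups were as follows. The high Rhbdd3 probe averaged 2.08 in NOD.H2h4, -0.67 in the T cells of B6.NODIdd1,5, 2.60 in NODtoB6 and 2.14 in B6toNOD. The high Phtf1 probe averaged 1.63, -0.72, 2.76 and 1.63 in the same groups. The high Glt8d1 probe averaged 1.57, -0.49, 3.04 and 1.57, and the high Tia1 probe 1.10, -0.73, 3.55 and 1.72. Their order over the groups was not the same, since NOD was above NODtoB6 for Rhbdd3 and Phtf1 but not for Glt8d1 and Tia1. A disagreement of probes also occurred among lower values: one probe of Etv3, an ETS family repressor, was -4.37 and -2.14 and the other 0.18 and 0.21. Gene means of Rhbdd3, Glt8d1, Phtf1, Tia1 and Etv3, and that of Dnajb1 given below, therefore average unlike probes and describe no single transcript.

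**Figure D3:**
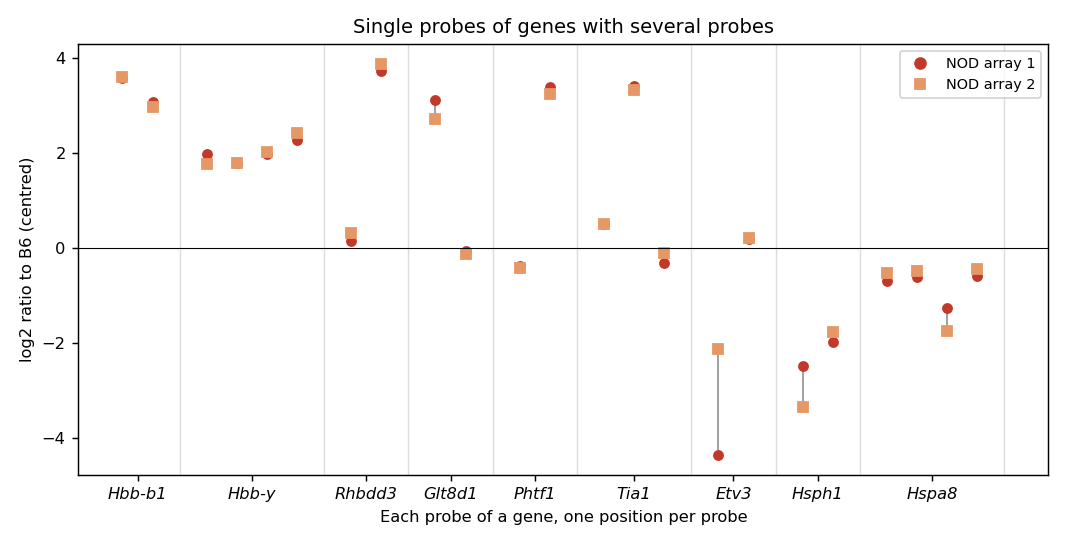
Log2 ratio of NOD to B6 after centring for each probe of 9 genes with several probes, one position per probe on the x axis; circles are NOD array 1 and squares NOD array 2, joined by a grey line. All probes of Hbb-b1, Hbb-y, Hsph1 and Hspa8 lie on one side of 0, while Rhbdd3, Glt8d1, Phtf1, Tia1 and Etv3 each have 1 probe far from the rest.

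Neutrophil granule genes were the other group with many higher members. Of 12 tested, 6 were higher, 2 were lower and 4 did not pass, and the median was 0.481. The shares were 50% higher and 16.7% lower, against 5.63% and 2.35% of all genes. S100a9, a calcium-binding protein that makes up much of the neutrophil cytosol, was 2.13 and 2.20 (2.17 ± 0.12, 4.48-fold, adjusted p = 8.1e-05). Anxa1, an annexin that limits neutrophil recruitment, was 1.17 and 1.33 (1.25 ± 0.18, adjusted p = 0.0067). Lcn2, an iron-scavenging granule protein, was 1.03 and 1.18 (1.10 ± 0.25, adjusted p = 0.029). All 3 lay above 1 on both arrays.

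Lyz2, the lysozyme of myeloid cells, was 0.74 and 0.45 (0.59 ± 0.090, adjusted p = 0.0078). Lcp1, an actin-bundling protein of leukocytes, was lower at -0.62 and -0.77 (-0.69 ± 0.080, adjusted p = 0.0035). Completing the count, Ltf (0.54 ± 0.067) and Csf3r (0.42 ± 0.067) were higher and Padi4 (-0.62 ± 0.13) was lower. Only 1 of these calls, that of S100a9, held under all alternatives. The values as deposited left 1 member higher and 1 lower. Without NOD replicate 1 there were 4 higher and 2 lower, and without NOD replicate 2 there were 3 higher and none lower. The Lcn2 call was also lost without either NOD.H2h4 array. The median was 0.330 in the values as deposited and 0.847 with arrays scaled. Both settings only shift or rescale all values of an array, so nothing is read from its sign there.

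Of 17 markers of monocytes, macrophages and dendritic cells 3 were higher (17.6%, against 5.63% of all genes) and none lower, with a median of -0.007. The 3 were Lyz2, Alox5ap (0.57 ± 0.074, adjusted p = 0.0049), which serves leukotriene synthesis, and Ctsb (0.57 ± 0.14, adjusted p = 0.042), a lysosomal protease. The complement genes C1qa (-0.11 ± 0.64), C1qb (-0.01 ± 0.11) and C1qc (0.15 ± 0.20) of tissue macrophages did not pass. Without NOD replicate 1 or without NOD replicate 2, 1 of the 17 was called, and none in the values as deposited. The Ctsb call was also lost without either array of B6.NODIdd1,5 T cells, B6.NODIdd1,5 kidney or NODtoB6.

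B cell markers went both ways. Of 9 tested 3 were higher and none lower (33.3% higher, against 5.63% of all genes), with a median of 0.18. On both arrays 5 were above 0 and 3 below. In the comparison with the other spleen T cell groups, given below, none of 7 tested was called. Ighm, the heavy chain of IgM, was 0.93 and 0.87 (0.90 ± 0.20, adjusted p = 0.032), Btk, a kinase of the B cell receptor pathway, was 0.39 and 0.81 (0.60 ± 0.14, adjusted p = 0.038), and Cd24a was 0.60 and 0.47 (0.54 ± 0.097, adjusted p = 0.014). The B cell receptor subunit Cd79b was -0.61 and -0.92 (-0.76 ± 0.55) and did not pass, so the members did not move one way. All 3 calls were lost without either NOD array and in the values as deposited, that of Ighm also without either NOD.H2h4 array, and that of Btk without either kidney or NODtoB6 array. Of 5 platelet markers, Gp1bb was lower (-0.86 ± 0.15, adjusted p = 0.035), and of 5 NK cell markers, the receptor Klrk1 was lower (-0.51 ± 0.085, adjusted p = 0.014). Both calls were lost without NOD replicate 2, and that of Gp1bb without NOD replicate 1 or either NOD.H2h4 or kidney array.

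Fewer cells of a type and less RNA per cell cannot be told apart in these bulk samples. Whether red cell, neutrophil or B cell RNA in the T cell preparations took part in the other differences was not tested. The shares of each list that passed are drawn in the plot of gene lists.

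**Figure D4:**
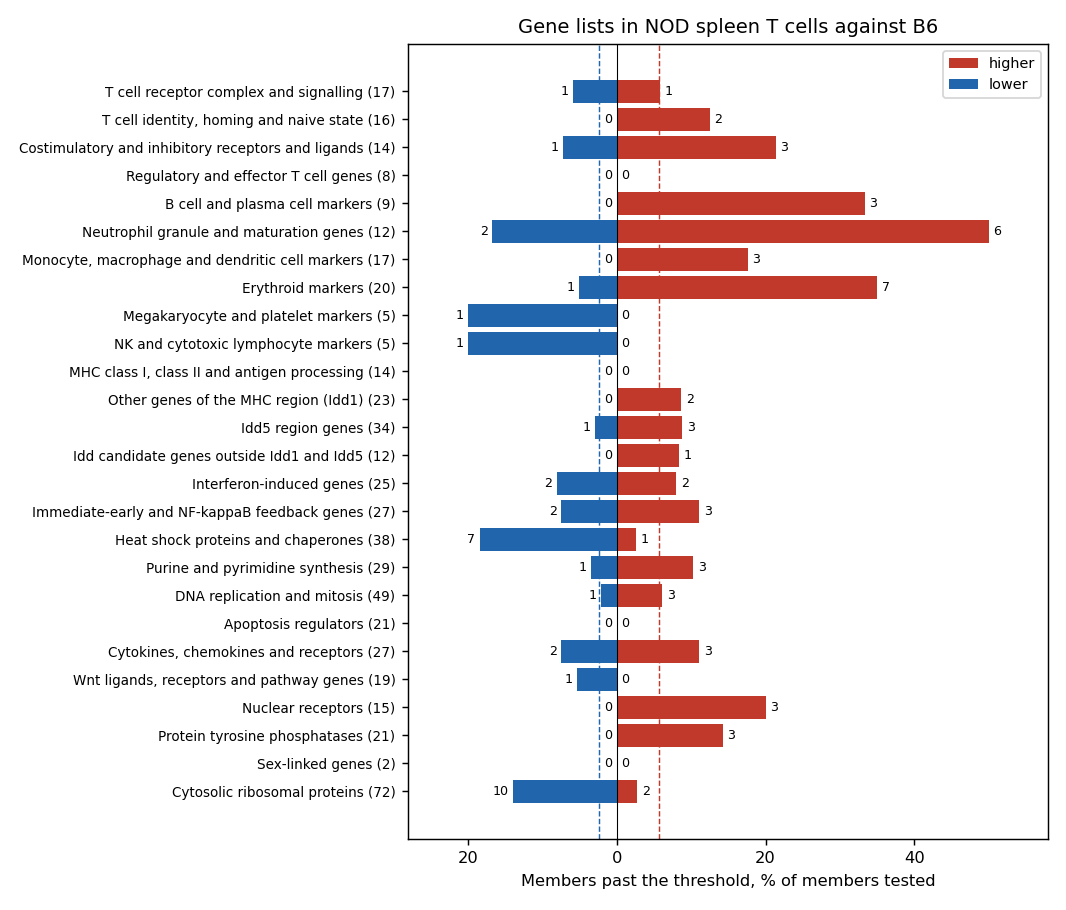
Share of the tested members of each gene list (y axis, with the number tested in parentheses) that were called higher (red, to the right) or lower (blue, to the left) in NOD against B6, in percent; the number beside a bar is the count of members, and the dashed lines are the shares over all genes, 5.63% higher and 2.35% lower. Neutrophil genes (6 of 12) and erythroid markers (7 of 20) have the largest shares higher among lists of at least 10 genes, and heat shock genes (7 of 38) the largest share lower among them.

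Genes of the T cell receptor and its signalling showed few differences. Of 17 tested 1 was higher and 1 was lower, near the share over all genes, and the median was 0.018. Fyn, a Src family kinase that starts receptor signalling, was 0.77 and 0.86 (0.81 ± 0.15, 1.76-fold, adjusted p = 0.015). Sla2, an adaptor that dampens it, was -0.30 and -0.90 (-0.60 ± 0.15, adjusted p = 0.038). Cd4 (-0.08 ± 0.42) did not pass. The Fyn call was lost without either NOD array, and that of Sla2 without NOD replicate 2 and without either array of NOD.H2h4, B6.NODIdd1,5 T cells, B6.NODIdd1,5 kidney or NODtoB6.

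Of 16 genes of T cell identity and homing 2 were higher (12.5%, against 5.63% of all genes) and none lower. Foxp1, which keeps T cells quiescent, was 0.49 and 0.36 (0.42 ± 0.083, adjusted p = 0.018). Cd44, an adhesion receptor raised on memory T cells, was 0.28 and 0.37 (0.33 ± 0.069, adjusted p = 0.024). The interleukin 7 receptor gene Il7r was 0.09 and 0.07 (0.08 ± 0.29) and did not pass. Neither call held without NOD replicate 1 or without NOD replicate 2, and that of Cd44 was also lost without either kidney array. None of 8 regulatory and effector T cell genes passed, with 1 at an unadjusted p under 0.05, while 1 was called higher and 1 lower with arrays scaled. Foxp3 is not among those tested.

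Costimulatory and inhibitory receptors were tested for 14 genes, with 3 higher, 1 lower and a median of -0.077. The shares were 21.4% and 7.14%, against 5.63% and 2.35% of all genes. Beside Cd200, Cd28, the main costimulatory receptor of naive T cells, was 0.76 and 0.42 (0.59 ± 0.099, 1.51-fold, adjusted p = 0.01). Tnfrsf9, which codes for 4-1BB on activated T cells, was 0.38 and 0.51 (0.45 ± 0.11, adjusted p = 0.044). Havcr1 was lower at -0.26 and -0.40 (-0.33 ± 0.081, adjusted p = 0.04). The Cd28 call was lost without NOD replicate 1 and in the values as deposited, and those of Tnfrsf9 and Havcr1 without either NOD or NOD.H2h4 array. Tnfrsf9 also lost its call without either array of B6.NODIdd1,5 T cells or NODtoB6, and Havcr1 without either kidney array. Icos was -0.47 and -0.17 (-0.32 ± 0.62). The signalling lymphocyte receptors Cd48 (-0.38 ± 0.26), Slamf6 (-0.25 ± 0.27), Slamf1 (-0.08 ± 0.093) and Cd244a (-0.07 ± 0.16) did not pass. The others not past were Cd160 (-0.74 ± 0.31), Cd276 (-0.09 ± 0.16), Cd86 (0.02 ± 0.39), Icosl (0.04 ± 0.28) and Cd47 (0.22 ± 0.35). The Cd47 arrays average different probes: the one measured on both was 0.53 and 0.76, and the other was -1.17 on array 1 only. Ctla4 has no probe with a single symbol here.

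Few genes of the Idd intervals were called. Of 34 genes of Idd5, 3 were higher and 1 lower (8.82% and 2.94%, against 5.63% and 2.35% of all genes). Beside Cd28, the splicing kinase Clk1 (0.53 ± 0.098, adjusted p = 0.015) and fibronectin Fn1 (0.51 ± 0.085, adjusted p = 0.01) were higher and Atic was lower. The calls of Clk1 and Fn1 were lost without either NOD array. Over whole chromosomes the share of called genes ran from 5.9% on chromosome 13 to 12.4% on chromosome 12. Chromosome 1, with Idd5, had 7.72% of 492 genes called, and chromosome 17, with Idd1, had 8.88% of 394. Both lie near the 7.98% over all genes, but shares over whole chromosomes cannot show whether an interval within them stands out. Among 12 candidate genes of other Idd intervals, Tnfrsf9 was the one called.

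None of 14 genes of MHC class I, class II and antigen processing passed, and their median was -0.161. At an unadjusted p under 0.05 the count was 4. With arrays scaled 2 were called lower, and with the running median subtracted 1 was called higher. H2-Aa, a class II chain, was -0.09 and -0.66 (-0.38 ± 0.24, adjusted p = 0.43). H2-Eb1, another class II chain, was 0.40 and 0.34 (0.37 ± 0.16, adjusted p = 0.21). B2m, the common chain of class I, was -0.15 and -0.60 (-0.38 ± 0.15, adjusted p = 0.19). NOD and B6 carry different MHC alleles, and how well these probes match either is not known. Of 23 other genes of the MHC region, Neu1, a lysosomal sialidase (0.46 ± 0.10, adjusted p = 0.026), and Wdr46 (0.34 ± 0.062, adjusted p = 0.014) were higher. That was 8.7% of the list, against 5.63% of all genes. Both calls were lost without either NOD array, and that of Neu1 without either NOD.H2h4 or kidney array.

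Heat shock proteins and chaperones leaned lower. Of 38 tested 7 were lower and 1 higher (18.4% and 2.63%, against 2.35% and 5.63% of all genes). On both arrays 30 were below 0 and 6 above, and the median was -0.2. Of all 8600 genes, 3567 were below 0 on both arrays and 2902 above. The median of the 38 stayed below 0 with the running median subtracted (-0.249). It was -0.351 in the values as deposited and -0.360 with arrays scaled. Those settings only shift or rescale all values of an array, so its sign could not change there. Hsph1, a large chaperone of the Hsp110 family, was the lowest at -2.24 and -2.56 (-2.40 ± 0.15, 0.19 of B6, adjusted p = 1.2e-04). Both of its probes were low, one at -2.48 and -3.35 and the other at -1.99 and -1.77. Hspa8, the constitutive Hsp70, was -0.79 and -0.80 (-0.80 ± 0.063, adjusted p = 5.1e-04), with 4 probes between -0.44 and -1.74.

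The other lower members work with them. They were Dnajb6 (-0.68 ± 0.17), the co-chaperone Stip1 (-0.68 ± 0.10), the Hsp90 gene Hsp90aa1 (-0.61 ± 0.12), the chaperonin subunit Cct3 (-0.60 ± 0.075) and Dnajb1 (-0.27 ± 0.068). The Dnajb1 mean rests on 1 of its 3 probes, which was -1.08 and -1.23, while the others were 0.41 and 0.29, and -0.0058 and 0.0053. Another chaperonin subunit, Cct6a, was higher at 0.55 and 0.81 (0.68 ± 0.17, adjusted p = 0.042). Hspa4 (-1.16 ± 0.31) and the mitochondrial chaperonin Hspd1 (-0.76 ± 0.21) did not pass. Without NOD replicate 1 the list had 3 members lower, without NOD replicate 2 it had 2, and the values as deposited had 4. The calls of Cct6a and Dnajb6 were also lost without either array of B6.NODIdd1,5 T cells or kidney, and that of Cct6a without either NODtoB6 array.

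The sequence of the Hsph1 promoter is shown because heat shock factor binds inverted GAA repeats, of which GAANNTTC and TTCNNGAA were searched. The 250 bases before its start (chr5:149636337-149636586, minus strand, RefSeq, GRCm38.p6) held 1 match, in capitals.
Hsph1: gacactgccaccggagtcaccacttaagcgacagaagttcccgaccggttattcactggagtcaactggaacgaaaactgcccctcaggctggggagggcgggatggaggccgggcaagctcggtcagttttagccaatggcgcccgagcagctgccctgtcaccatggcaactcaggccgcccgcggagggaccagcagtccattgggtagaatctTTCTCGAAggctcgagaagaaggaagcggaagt
Of the 7 lower members 5 have an entry in the promoter table and 2 of them held a match. A member counted if any of its listed promoters matched. Over single promoters 12.8% held a match, which is a different measure, so the shares cannot be compared directly.

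Immediate-early genes, which cells switch on within minutes of a stimulus, went both ways. Of 27 tested 3 were higher and 2 lower (11.1% and 7.41%, against 5.63% and 2.35% of all genes), with a median of 0.16. Fos, a subunit of the AP-1 factor, was -0.95 and -0.86 (-0.90 ± 0.074, 0.53 of B6, adjusted p = 6.2e-04), and Ier2 was -0.77 and -0.68 (-0.72 ± 0.11, adjusted p = 0.0082). Jund was -0.97 and -0.85 (-0.91 ± 0.40) and did not pass. In contrast Egr1 was 0.72 and 0.78 (0.75 ± 0.25) and did not pass. Those higher were the antiproliferative gene Btg1 (0.41 ± 0.077, adjusted p = 0.016), the NF-kappaB inhibitor Nfkbia (0.39 ± 0.077, adjusted p = 0.018) and the phosphatase Dusp1 (0.39 ± 0.070, adjusted p = 0.013). Without either NOD array, Fos was the one member still called.

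**Figure D5:**
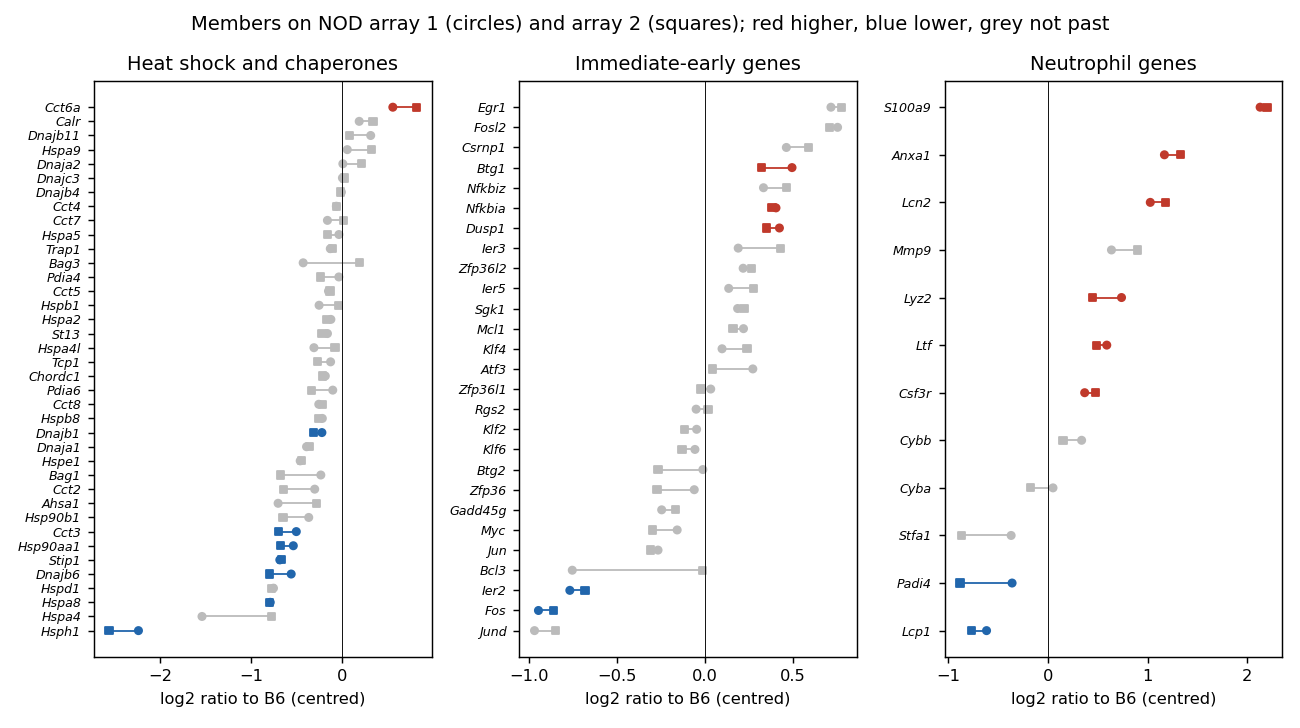
Log2 ratio of NOD to B6 after centring (x axis) on NOD array 1 (circles) and NOD array 2 (squares) for the tested heat shock and chaperone genes (38), immediate-early genes (27) and neutrophil genes (12), one gene per line; red lines are genes called higher, blue called lower and grey not past the threshold. Hsph1 lies near -2.4, apart from the other chaperones, and S100a9 lies near 2.2.

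Cytosolic ribosomal proteins were measured for 72 genes, of which 10 were lower and 2 higher (13.9% and 2.78%, against 2.35% and 5.63% of all genes). On both arrays 47 were below 0 and 16 above, and the median was -0.118. Of all 8600 genes, 3567 were below 0 on both arrays and 2902 above, with a median of -0.031. The shifts were small. Rpl37a was -0.71 and -0.99 (-0.85 ± 0.083, adjusted p = 0.0015), followed by Rpl29 (-0.69 ± 0.085, adjusted p = 0.0043), Rps24 (-0.55 ± 0.079, adjusted p = 0.0068) and Rpl30 (-0.55 ± 0.084, adjusted p = 0.008). Those higher were Rpl22l1 (0.43 ± 0.065) and Rpl10a (0.25 ± 0.065). The number lower was 30 with arrays scaled, 20 with the running median subtracted, 2 in the values as deposited, 8 without NOD replicate 1 and 1 without NOD replicate 2. The median was below 0 under each of these. With arrays scaled and in the values as deposited this had to be so, since all values of an array were only rescaled or lowered. Ribosomal protein genes have many processed copies in the genome, so their probes may not be specific.

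Interferon-induced genes showed no common direction. Of 25 tested 2 were higher and 2 lower (8% each, against 5.63% and 2.35% of all genes), with a median of -0.012. Ly6e, a membrane-anchored protein of the Ly6 family, was -1.72 and -2.01 (-1.87 ± 0.11, 0.27 of B6, adjusted p = 1.2e-04). It was as low in NOD.H2h4, with a mean of -2.07, whereas it averaged 0.60 in B6.NODIdd1,5 T cells, 0.04 in NODtoB6 and 1.56 in B6toNOD. Tgtp1, an interferon-induced GTPase, was -0.44 and -0.89 (-0.67 ± 0.16, adjusted p = 0.036). Irf9, which carries the interferon signal to the nucleus (0.42 ± 0.065, adjusted p = 0.0081), and Trim25 (0.40 ± 0.089, adjusted p = 0.027) were higher. The calls of Tgtp1, Irf9 and Trim25 were lost without NOD replicate 2, those of Tgtp1 and Trim25 also without NOD replicate 1 or either kidney array, and that of Tgtp1 without either NOD.H2h4, B6.NODIdd1,5 T cell or NODtoB6 array.

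Of 27 cytokine, chemokine and receptor genes 3 were higher and 2 lower (11.1% and 7.41%, against 5.63% and 2.35% of all genes). The median was 0.026, with 12 above 0 on both arrays and 9 below. The 3 called higher were receptor genes. Tgfbr2, of transforming growth factor beta, was 0.66 and 0.60 (0.63 ± 0.072, adjusted p = 0.0033). Ifngr2 was 0.53 and 0.53 (0.53 ± 0.11, adjusted p = 0.02) and Il4ra was 0.36 and 0.46 (0.41 ± 0.075, adjusted p = 0.014). The 2 called lower were ligand genes. Cxcl14 was -1.14 and -1.81 (-1.47 ± 0.31, adjusted p = 0.023) and Tnfsf8, the ligand of CD30, was -0.29 and -0.64 (-0.47 ± 0.093, adjusted p = 0.019). In the values as deposited the calls of Tgfbr2, Ifngr2, Cxcl14 and Tnfsf8 were lost. Tgfbr2 kept its call without either NOD array, Cxcl14 and Ifngr2 lost it without either, and Tnfsf8 without NOD replicate 2. Il18rap, an interleukin 18 receptor chain, was -1.02 and -3.52 (-2.27 ± 1.14) and did not pass.

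Genes of DNA replication and mitosis were near the share over all genes. Of 49 tested 3 were higher and 1 lower (6.12% and 2.04%, against 5.63% and 2.35% of all genes). Kif2c, a kinesin that takes microtubules apart at the centromere, stood out at 1.60 and 1.83 (1.71 ± 0.10, adjusted p = 1.0e-04), while Mki67 (-0.41 ± 0.46) and Top2a (-0.04 ± 0.17) did not pass. Of 29 genes of purine and pyrimidine synthesis 3 were higher and 1 lower (10.3% and 3.45%). Among those higher were Ampd3, an AMP deaminase abundant in red cells (0.60 ± 0.12, adjusted p = 0.018), and Paics (0.46 ± 0.11, adjusted p = 0.041). None of 21 apoptosis regulators passed, with 2 at an unadjusted p under 0.05, while 4 were called higher with arrays scaled. Of 15 nuclear receptors, Nr2e1 (0.46 ± 0.077) and Nr1d2 (0.35 ± 0.067) were higher beside Nr2f2, so that 20% were higher. Nr2f1, the nearest relative of Nr2f2, was at 0.19 and 0.20 by the probe measured on both NOD arrays, and its other probe, with a value on array 1 only, was at -0.73. Of 21 protein tyrosine phosphatases, Ptp4a2 (0.49 ± 0.12) and Ptpn18 (0.26 ± 0.065) were higher beside Ptpn13, so that 14.3% were higher. The Ampd3 call was lost without either NOD array. The calls of Paics, Nr1d2, Ptp4a2 and Ptpn18 were lost without either NOD or kidney array, and those of Ptp4a2 and Ptpn18 also without either NOD.H2h4 or B6.NODIdd1,5 T cell array.

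Some further genes had ratios above 2. Pam, which amidates peptide hormones, was 3.21 and 2.91 (3.06 ± 0.39, adjusted p = 0.0045). Josd1, a deubiquitinase, was 4.01 and 2.10 (adjusted p = 0.0044), so that its arrays lay far apart. They lay 0.95 on either side of the mean, against an SE of 0.38, which draws on the spread within all groups. Rnpc3, of the minor spliceosome, was 3.19 and 2.66 (2.92 ± 0.56, adjusted p = 0.016). Josd1 passed under all alternatives, while the call of Pam was lost without NOD replicate 2 and that of Rnpc3 without either NOD array. Spryd7 was 2.39 and 2.23 (2.31 ± 0.079, adjusted p = 6.0e-06). Slc38a9, a lysosomal amino acid transporter and sensor, was 2.12 and 1.96 (2.04 ± 0.29, adjusted p = 0.0084), and its call was lost without either NOD array.

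Several of the lowest genes differed widely between the arrays. Atic, the enzyme of the last steps of purine synthesis and a gene of Idd5, was -4.79 and -2.51 (-3.65 ± 0.52, 0.08 of B6, adjusted p = 0.0086). Wnt2, a Wnt ligand, was -3.98 and -2.09 (-3.03 ± 0.38, adjusted p = 0.0064), and was the 1 called gene of 19 in the Wnt pathway. Serpinb11, a protease inhibitor, was -3.85 and -1.66 (adjusted p = 0.0075). These 3 genes were far lower on array 1 than on array 2, and all passed under each alternative in which they had a value. The NOD arrays lay 1.14 on either side of the mean for Atic, 0.95 for Wnt2 and 1.09 for Serpinb11. Their SEs, which draw on the spread within all groups, were smaller, at 0.52, 0.38 and 0.41. Tmprss2, a membrane serine protease, was -3.60 and -2.01 (adjusted p = 0.013). Pfkp, a phosphofructokinase of glycolysis, was -1.63 and -3.44 (adjusted p = 0.019). Pdk1, a kinase that shuts pyruvate out of mitochondria, was -1.86 and -1.89 (-1.87 ± 0.23, adjusted p = 0.004). The calls of Tmprss2, Pfkp and Pdk1 were lost without NOD replicate 2, and that of Tmprss2 also without NOD replicate 1.

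The remaining low genes often had no value in other groups, so that fewer arrays stood behind their errors. Bbof1, of ciliary basal bodies, was -2.52 and -3.25 (-2.88 ± 0.26, adjusted p = 0.015). Crkl, a signalling adaptor, was -2.72 and -2.31 (-2.52 ± 0.26, adjusted p = 0.0098), and averaged -3.71 in B6.NODIdd1,5 T cells. Morc4 was -1.70 and -1.92 (-1.81 ± 0.10, adjusted p = 0.0073). Prkg2, a cGMP-dependent kinase, was -1.99 and -1.74 (adjusted p = 0.038). All 4 calls were lost without either NOD array, and that of Prkg2 also without either kidney array. Tmem150a (-2.17 ± 0.47, adjusted p = 0.033), Plpbp (-1.96 ± 0.48, adjusted p = 0.048) and 6330549H03Rik (-1.83 ± 0.44, adjusted p = 0.046) completed the 15 lowest. Their calls were lost without either NOD or kidney array, those of Plpbp and 6330549H03Rik also without either NOD.H2h4 array, and that of Plpbp without either B6toNOD array.

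Many large ratios belonged to features without a single gene symbol. Of the 7331, 1086 were higher and 199 lower (14.8% and 2.71%). On both arrays 40 were above 2 and 9 below -2, against 13 and 9 of the named genes. The sex-linked genes did not pass: Xist was 0.33 and 0.48 and Eif2s3y was 0.29 and 0.10.

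To set NOD apart from the other spleen T cells, the mean of the 4 other spleen T cell groups was subtracted in the same fit. A probe's dye bias cancels in this difference where all arrays have the same orientation. Of 6960 genes with values on all 10 arrays, 1045 were called (15%), 483 higher in NOD (6.94%) and 562 lower (8.07%). Both comparisons use the same NOD arrays, so they are not independent. Of the 450 genes higher against B6 that could be tested, 161 were also higher against the other groups and 22 were lower. Of the 150 genes lower against B6, 107 were also lower against the other groups and none was higher.

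Of 15 erythroid markers tested this way 5 were higher and 1 lower. Hbb-b1 differed by 2.01 ± 0.14 (adjusted p = 3.8e-04), Hbb-y by 1.09 ± 0.10 (adjusted p = 0.0014) and Hba-x by 0.89 ± 0.12 (adjusted p = 0.0038). NOD lay above the mean of the other groups but not above each of them: NODtoB6 averaged 2.74 for Hbb-y and 2.54 for Hba-x, both higher than NOD. Hbb-bh1 (3.10) and Alas2 (2.82) were also higher in NODtoB6 than in NOD, and were not tested against the mean of the other groups, as 1 group lacked a value. Cd200 differed by 2.33 ± 0.069 (adjusted p = 2.0e-05) and Nr2f2 by 2.11 ± 0.086 (adjusted p = 3.0e-05). The neutrophil list went the other way, with 1 of 11 higher and 8 lower. S100a9 averaged 2.33 in NOD.H2h4, -1.25 in the T cells of B6.NODIdd1,5, 3.05 in NODtoB6 and 6.68 in B6toNOD, so that NOD lay below the mean of the others by 0.54 (-0.54 ± 0.13, adjusted p = 0.031). Lcn2 averaged 2.05, -1.21, 2.95 and 5.72 in the same groups, and NOD differed by -1.28 ± 0.27 (adjusted p = 0.019).

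Hsph1, Fos and Ly6e were lower by both measures. Hsph1 averaged 0.32 in NOD.H2h4, -0.07 in the T cells of B6.NODIdd1,5, -0.96 in NODtoB6 and -0.11 in B6toNOD, and NOD differed from their mean by -2.19 ± 0.16 (adjusted p = 4.7e-04). Fos was above 0 on all 8 of the other spleen T cell arrays and differed by -1.47 ± 0.078 (adjusted p = 9.9e-05). Ly6e differed by -1.90 ± 0.12 (adjusted p = 3.1e-04). Serpinb11 (-2.92 ± 0.45, adjusted p = 0.0063) and Atic (-2.81 ± 0.58, adjusted p = 0.021) had the lowest differences. T cell receptor genes had 4 of 13 higher and 1 lower, with Fyn at 1.04 ± 0.17 (adjusted p = 0.0069), and Cd28 differed by 0.88 ± 0.11 (adjusted p = 0.0029). Fyn averaged 0.36 in NOD.H2h4, -0.85 in the T cells of B6.NODIdd1,5, 0.11 in NODtoB6 and -0.51 in B6toNOD. Whether RNA of other blood cells in the other groups took part in these differences was not tested. Of 72 ribosomal protein genes 22 were lower and 2 higher.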

How the data were processed

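Labelled RNA was hybridised to 2-colour cDNA arrays, and the authors deposited log2 ratios of the experimental to the B6 channel for 20736 probes, per the labels and the values. No source used here gives the normalisation or tools behind these deposited log2 values. Cells at a ratio of 100000, 22 and 19 of them on the NOD arrays, were treated as missing.

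Probes were named through GEO's platform annotation: 13033 carried 1 symbol, 312 several and 7391 none, and 12850 were matched to RefSeq. Arrays were centred on the median feature. Group means over 12 arrays were fitted with limma 3.58.1 in R 4.3.3, with 6 residual and 1.4 prior degrees of freedom, and p-values were adjusted by Benjamini-Hochberg. The script was tested on simulated data. The number of arrays limits the precision.

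Named genes were the 15 highest and 15 lowest called genes with both arrays on the same side of 0, the 10 each way in NOD minus the other spleen T cell groups, up to 4 called members per list by size, and the genes of the erythroid, sex-linked and costimulatory lists with a set of T cell and MHC genes. Other members were named after their values were seen. The genes, lists and rules were chosen with earlier results of these data known. The alternatives changed the centring, scaling, missing values, probe summary, features, arrays, moderation and replicate block. The NOD arrays average different probes for 122 genes, 5 of them called, where a probe had a value on 1 array only.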

Additional observations from a re-analysis of the deposited data

Results flagged for a closer look

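The genes below differed between NOD and the mean of the other 4 spleen T cell groups in the same limma fit (adjusted p under 0.05), with the difference on the log2 scale in each case. Those higher in NOD were Josd1 (3.50), Cd200 (2.33), Nr2f2 (2.11), Pam (2.07), Hbb-b1 (2.01), the homeobox repressor Tgif1 (1.96), Ciao2b (1.90), Atp6v0d1 (1.81), Spryd7 (1.81) and Ptpn13 (1.79). Josd1 was below 0 in every other group, with means of -0.37 in NOD.H2h4, -0.82 in the T cells of B6.NODIdd1,5, -0.06 in NODtoB6 and -0.52 in B6toNOD. Tgif1 did not pass against B6 (0.81 ± 0.41), and its means in the same groups were -1.47, -1.25, -0.15 and -1.75. NODtoB6 averaged 2.9 for Pam and 2.63 for Ptpn13, near the NOD means of 3.06 and 2.67.

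Those lower in NOD were Serpinb11 (-2.92), Atic (-2.81), Hsph1 (-2.19), the peroxisomal import gene Pex13 (-2.05), Ly6e (-1.90), Tmem14c (-1.87), the chemokine Ccl9 (-1.85), 1700024G10Rik (-1.68), the organic anion transporter Slc22a7 (-1.56) and Fos (-1.47). Against B6 itself Pex13 (-1.64 ± 0.46), Tmem14c (-1.52 ± 0.45), Ccl9 (-0.63 ± 0.47) and 1700024G10Rik (-0.94 ± 0.41) did not pass. For Tmem14c and Ccl9 the B6.NODIdd1,5 T cells stood highest, with means of 3.0 and 2.59. NOD did not lie below each of the groups. NOD.H2h4 averaged -1.71 for Tmem14c and -2.07 for Ly6e, against -1.52 and -1.87 in NOD. NODtoB6 averaged -1.63 for Slc22a7, against -1.79 in NOD.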

How the results depend on the processing

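Against B6, 1971 features were called. The count was 197 in the values as deposited (106 higher), 4986 with arrays scaled (3166 higher), 1261 with only the spleen T cell arrays and 381 with unnamed features left out. Leaving out one array gave 194 (without NOD replicate 2) to 2476 (without either B6toNOD array), with 836 without NOD replicate 1. Against the other spleen T cell groups 2245 features were called. The count was 4049 with arrays scaled (63.1% higher, against 44.8%), 854 with unnamed features left out and 2914 as deposited, of which 96.5% were higher. Leaving out one array gave 495 (without NOD replicate 2) to 3409 (without B6toNOD replicate 2), with 1292 without NOD replicate 1 and 3406 without B6toNOD replicate 1. The lone NOD array was then assumed to vary like the other groups. Fewer features or arrays entered some of these tests; the cause was not tested otherwise.

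The replicate number as a block called 1686 features against B6 and 2040 against the other groups. The numbers did not pair the arrays, since correlations of deviations between groups ran from -0.04 to 0.02 over 15 pairs of groups.

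Of the 686 called genes Dock9 (-0.65, and 0.20 with the median over probes), Got2 (0.85 and -0.28) and Pcyt1a (-0.43 and 0.19) changed sign with the median over probes, and none did under the other alternatives. Uncalled genes that did were, as deposited, Il7r (-0.0683), Cd86 (-0.129), Icosl (-0.107), Gata1 (-0.00936), Tfrc (-0.000472), Urod (-0.0917) and Uros (-0.14). With the running median subtracted they were Icos (0.0303), Cd4 (0.1), Slamf1 (0.0325) and Uros (-0.0000926). Others changed sign between the NOD arrays, so that the value without NOD replicate 1 and without NOD replicate 2 was 0.216 and -0.376 for Cd4, -0.135 and 0.179 for Cd86, 0.0315 and -0.194 for Slamf1, 0.00352 and -0.772 for Cd48, -0.0651 and 0.184 for Urod, -0.0413 and 0.0625 for Uros, and 0.239 and -0.256 for Ppox. The same pair was -0.18 and 0.011 for Cd276, -0.297 and 0.151 for Cd244a, 0.764 and -0.316 for Cd47, whose arrays average different probes, -0.439 and 0.00868 for Car1 and -0.751 and 0.125 for Tal1. Depth was unknown, since spot intensities were not analysed here.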
